A study of Drosophila melanogaster with 3 samples.

Results

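The genes described here encode the general transcription machinery of RNA polymerase II and its co-activator Mediator. They were chosen by symbol alone, as the protein-coding genes on the main chromosomes whose symbol starts with MED or Taf and a digit, with TfII, or with Polr2. The rule gave 62 of 13945 protein-coding genes, of which 25 encode Mediator subunits, 15 carry Taf symbols, 9 carry TfII symbols and 13 encode subunits or a partner of RNA polymerase II. Binding was measured by chromatin immunoprecipitation followed by sequencing (ChIP-seq) in whole Drosophila melanogaster embryos aged 0 to 24 h. All samples came from transgenic flies of the strain Doc3-GFP, which make the T-box transcription factor Doc3 as a fusion with eGFP, and an anti-GFP antibody recovered the tagged protein. The 3 biological replicates formed 1 group, and sonication gave fragments in a size range of 200 to 800. The labels name a possible control experiment, which was not analysed here, so no value below is set against a mock or input sample, and whole embryos do not show in which cells a site was bound. The read depth behind the lists is unknown. Each replicate had a long ranked list of 30159, 59389 and 141211 regions for replicates 1, 2 and 3, and a thresholded list of 1774, 2486 and 1812 peaks. A conservative list of 2793 peaks was given for the whole series. A gene was counted as having a peak when the summit of a conservative peak lay within 500 bp of any of its annotated transcription start sites.

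RNA polymerase II cannot find a promoter unaided. TFIID, made of the TATA-binding protein and its associated factors (the TAFs), recognises the core promoter, and TFIIA, TFIIB, TFIIE, TFIIF and TFIIH complete the preinitiation complex with the polymerase. Mediator connects activators bound at a distance to this complex through its head, middle and tail modules, held together by the scaffold subunit MED14. Most of these proteins are needed in nearly every cell, and most of their genes are expressed throughout development. The symbol rule takes no account of expression, which was not measured here, so members of narrower expression are counted with the rest.

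The sequences under 6 member summits are given first, so that the bound promoters can be read beside their values. They were picked in part for the palindrome TATCGATA, the DNA replication-related element (DRE) that the factors DREF and BEAF-32 are known to bind, so they do not show how common it is. All but the Taf9 stretch lie between head-to-head start sites. MED7, MED27 and MED28 carried the strongest Mediator peaks, Polr2D and MED28 were the members with TATCGATA within 50 bp of the summit, and Taf9 and Taf10 stand for the TAFs. Each stretch reaches at most 60 bases to either side of the summit, stops at the first annotated exon, and is written 5′ to 3′ on the strand of the gene, from the reference sequence of genome release 6 (dm6). Capitals mark TATCGATA, or its core TATCGA in either orientation.
MED7 chr3R:10761067-10761147 (- strand): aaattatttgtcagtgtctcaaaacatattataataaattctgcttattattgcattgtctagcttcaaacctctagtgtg
MED27 chr3R:5654941-5655061 (+ strand): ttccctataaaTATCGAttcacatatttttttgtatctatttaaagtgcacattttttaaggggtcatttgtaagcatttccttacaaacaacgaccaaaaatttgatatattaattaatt
MED28 chr3R:25476916-25477002 (+ strand): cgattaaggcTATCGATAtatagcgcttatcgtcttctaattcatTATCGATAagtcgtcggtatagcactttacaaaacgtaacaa
Polr2D chr3R:18255488-18255529 (- strand): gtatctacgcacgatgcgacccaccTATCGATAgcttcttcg
Taf9 chrX:17842075-17842160 (+ strand): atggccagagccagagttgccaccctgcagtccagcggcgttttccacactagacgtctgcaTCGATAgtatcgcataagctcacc
Taf10 chr2L:2767846-2767889 (+ strand): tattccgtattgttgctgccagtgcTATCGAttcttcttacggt
The MED28 stretch held TATCGATA at 2 places in the 87 bases between the start of MED28 and that of CG4553, and its summit was base 45. The Taf10 stretch is the whole spacer of 44 bases between Taf10 and Taf10b, with 1 core element close to its summit at base 13. No motif of those searched lay within 50 bp of the MED7 summit, although this was the strongest member peak. A TATCGATA was centred 90 bp from that summit, beyond the stretch shown.

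Of the 62 members, 22 had a conservative peak at a start site (35.5%, 95% Wilson interval 24.7 to 47.9%, counting error only). Over all 13945 protein-coding genes, 2980 had one (21.4%). The members' share was thus above that of all genes, and the 22 genes had 21 distinct peaks, since Taf10 and Taf10b have 1 in common. The groups differed in their counts. Among the TAF genes 10 of 15 had a peak, against 7 of 25 Mediator genes, 4 of 13 RNA polymerase II genes and 1 of 9 TFII genes. No test was made of the difference between these counts, because the members were taken up with earlier results of these data known. By their own thresholded lists, 21 members (33.9%) had a summit within 500 bp in replicate 1, and 17 (27.4%) in each of replicates 2 and 3. The same shares over all protein-coding genes were 15.9%, 19.8% and 15.6%, so the members lay above all genes in each replicate, least so in replicate 2. The count was lower when the conservative peak also had to be overlapped in the replicates' thresholded lists. With all 3 lists required, 12 of the 62 members were counted, beside 1744 of all 13945 genes. With only 2 lists required, 12 members (19.4%) were counted for replicates 2 and 3, 15 (24.2%) for replicates 1 and 3 and 14 (22.6%) for replicates 1 and 2, beside 14%, 13% and 14.3% of all genes.

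**Figure D1:**
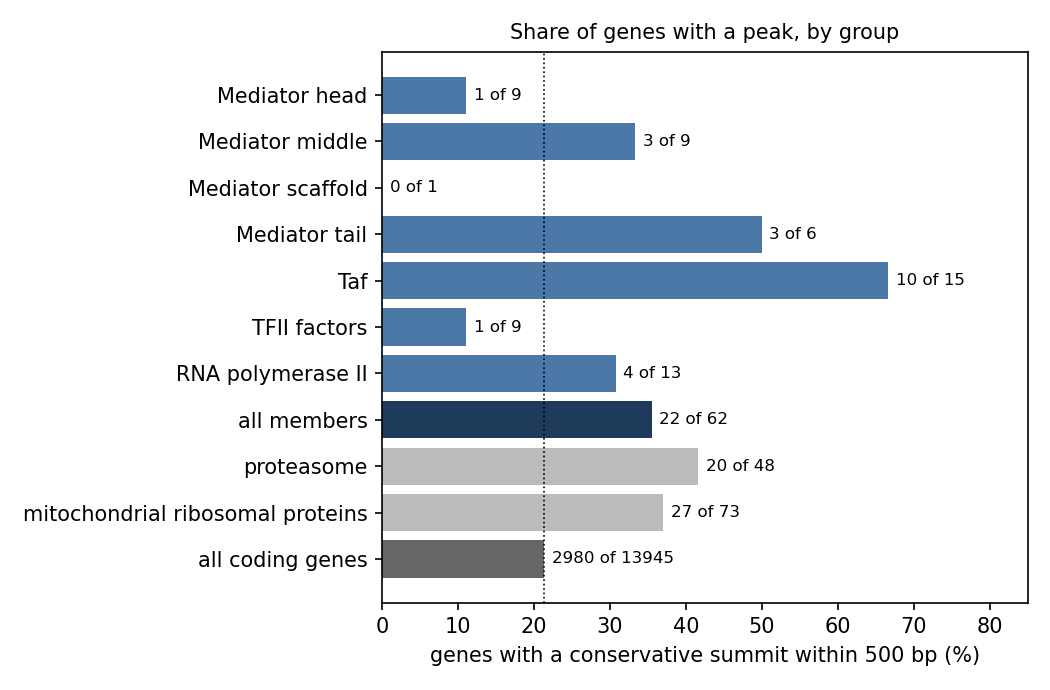
Bars give the percentage of genes in each group with a conservative summit within 500 bp of a start site, starting at 0, with the counts written beside them. The dotted line marks the 21.4% of all protein-coding genes, which the Taf bar (10 of 15) exceeds most and the Mediator head and TFII bars (each 1 of 9) do not reach.

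In Mediator the peaks were spread over the modules. The middle module had 3 of 9 (MED7, MED9 and MED26), the tail 3 of 6 (MED16, MED25 and MED27) and the head 1 of 9 (MED28), while the scaffold gene MED14 had none. MED7, a subunit of the elongated middle module, had the strongest peak of any member, with a conservative signal of 875 that ranked 25 of 2793. Signal is the strength the authors' peak caller gave a region, in units that no source states, and can be compared only within a list. In the ranked lists this region (chr3R:10760935-10761298) had signals of 201, 366 and 317 in replicates 1, 2 and 3. For scale, the median over all conservative peaks was 43.3, 92 and 73.6 in the same replicates, highest in replicate 2, and signal was therefore also ranked among the 2793 conservative peaks within each replicate. MED7 lay at percentile 99.2 ± 0.3 (SD, n = 3), near the top in every replicate.

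MED27, a tail subunit that contacts the head, followed with a conservative signal of 578 (rank 147). Its region had signals of 113, 267 and 220 in replicates 1, 2 and 3, and stood at percentile 94.3 ± 1.4 (SD, n = 3). It was high in all 3 replicates, in a narrow range. MED28, the only head gene with a peak, had a conservative signal of 431 (rank 325), with 88.6, 198 and 151 in the replicates (percentile 86.4 ± 1.7, SD, n = 3). MED25, a tail-associated subunit that receives activators in mammals, reached 319 (rank 618), with replicate signals of 53.5, 148 and 119. Its percentile of 71.1 ± 9.1 (SD, n = 3) was lower in replicate 1 (60.7) than in replicates 2 (77.4) and 3 (75.2). MED9, of the middle module, had 172 in the conservative list and was thresholded in replicates 1 and 3. MED26, which in mammals recruits elongation factors, and the tail gene MED16 had conservative signals of 103 each and were in no replicate's thresholded list. For MED16 no region of replicate 3 overlapped the peak at all. These 2 calls therefore rest on the series-level list alone.

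The Mediator genes without a conservative peak were MED6, MED8, MED11, MED17, MED18, MED20, MED22 and MED30 of the head, MED1, MED4, MED10, MED19, MED21 and MED31 of the middle, MED15, MED23 and MED24 of the tail, and MED14. For 4 of them a replicate's thresholded list held a peak all the same. MED8 had one in replicate 1, with ranked signals of 34.7, 27 and 47.3 in replicates 1, 2 and 3. The scaffold gene MED14 had one in replicate 2, with 14.8, 75.4 and 30.4. Ranked among all coding genes within each replicate, MED14 lay at percentile 69.7, 85.1 and 72.5, highest in replicate 2. MED19 had one in replicates 1 and 3, with 26.6, 28.8 and 49.5. MED20, whose start lies 47 bp from that of the TBP-related factor gene Trf on the other strand, had one in replicates 2 and 3, with 52.4 and 45.6, while replicate 1 had no region there. Of all 10965 protein-coding genes without a conservative peak, 3.72% had a thresholded peak in some replicate, and among the 40 such members these 4 did, all of them Mediator genes.

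The TAF genes had the largest share of any member group. TAFs build TFIID, and many carry a histone fold with which they pair. Conservative peaks lay at Taf3, Taf4, Taf6, Taf7, Taf8, Taf9, Taf10, Taf10b, Taf11 and Taf13, and none at Taf1, Taf2, Taf5, Taf12 and Taf12L. Grouped by fold, a grouping made after the values were seen, 9 of 11 histone-fold TAF genes had a peak and 1 of the 4 others (Taf7) did. The 9 count the single peak of Taf10 and Taf10b for both genes. The known histone-fold pairs Taf6 with Taf9 and Taf11 with Taf13 had a peak within 500 bp of both genes, whereas Taf4 had one and its partner Taf12 did not. Most of these pair summits were nearer to another gene, so the peaks cannot be given to the TAF genes alone. The Taf6 summit was 233 bp from Taf6 and 100 bp from ash1. At Taf11 the distances were 180 bp and 47 bp (und), and at Taf13 167 bp and 44 bp (nesd). In the thresholded lists of replicates 1, 2 and 3, 9, 6 and 6 of the 15 TAF genes had a summit, in each replicate a larger share than that of all genes.

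TAF peaks were of middling strength rather than strong. Their median conservative signal was 189, against 227 over all genes with a peak. The strongest was at Taf7, a TFIID subunit that binds Taf1, with 395 (rank 402) and replicate signals of 95.6, 164 and 144 (percentile 84.4 ± 3.4, SD, n = 3). Taf6, with 228 (rank 1043), had 45.6, 92 and 74.6 in the replicates, and its percentile of 51 ± 1.3 (SD, n = 3) was at the middle of the list each time. Taf9, which TFIID has in common with the acetyltransferase complex SAGA, had 221 (rank 1077), with 56.6, 118 and 78.2, and percentiles from 52.9 in replicate 3 to 65.2 in replicate 2. Taf10, of TFIID, and Taf10b, of SAGA, have their single peak in the spacer between them, with a conservative signal of 200.2 (rank 1211). Its replicate signals were 44.9, 92.7 and 63.6, and it passed the authors' threshold in replicates 1 and 3 but not 2. The remaining 5 ranged from 98.7 at Taf8 to 177 at Taf11. Of these, Taf13 was thresholded in all 3 replicates, Taf11 in 2, and Taf3, Taf4 and Taf8 in 1 each.

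Among the TFII genes only TfIIFalpha had a conservative peak. It encodes the large subunit of TFIIF, which escorts the polymerase to the promoter. Its signal of 467 ranked 269, and the replicates gave 97.4, 209 and 148 (percentile 87.7 ± 2.8, SD, n = 3), high in all 3. The gene of the other TFIIF subunit, TfIIFbeta, had a ranked region in replicate 1 alone, with a signal of 6.31. TfIIA-L, TfIIA-S, TfIIA-S-2, TfIIB, TfIIEalpha, TfIIEbeta and the elongation factor gene TfIIS had no conservative peak either, and none of them had a thresholded peak in any replicate.

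RNA polymerase II genes had peaks at Polr2C, Polr2D, Polr2H and Polr2J. Polr2C and Polr2J encode the pair on which the enzyme's core is assembled, Polr2D a subunit of its stalk, and Polr2H a subunit found in all nuclear RNA polymerases. Polr2J had the strongest of these peaks, 324 (rank 604), with replicate signals of 70.3, 164 and 100.9 and a percentile of 74.9 ± 7.3 (SD, n = 3). Polr2D had 269 (rank 825), with 53.8, 134 and 126.8, lowest relative to the other peaks in replicate 1. Polr2H had 232 (rank 1020), with 53.3, 90.7 and 77.3 (percentile 54.1 ± 5.9, SD, n = 3), close to the middle of the list. Polr2C had 181 and passed the threshold in replicates 1 and 2. The genes of the catalytic subunits, Polr2A and Polr2B, had none, nor did Polr2E, Polr2F, Polr2G, Polr2I, Polr2K, Polr2L and Polr2M.

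**Figure D2:**
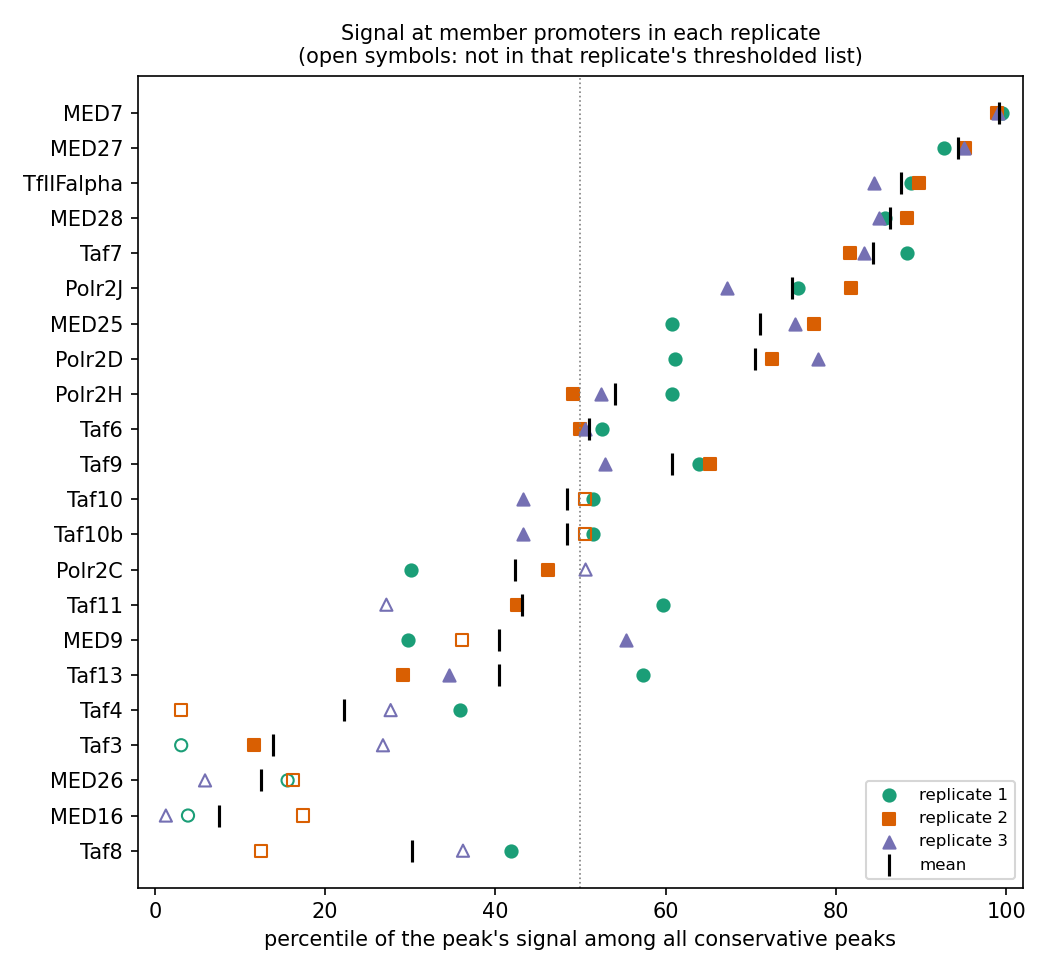
For each of the 22 members with a peak (rows, ordered by conservative signal), points give the percentile (x axis, 0 to 100) of its signal among all conservative peaks in replicates 1, 2 and 3, bars the mean, and open symbols a peak absent from that replicate's thresholded list. From MED7 to Polr2D the means are 70.5 or above, while Taf4, Taf3, MED26 and MED16 lie at 22.2 or below and are mostly open.

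As a set, the bound members resembled the other bound genes in strength. Their median conservative signal was 210.5, that of all 2980 genes with a peak 227, and that of the whole list 170.4. Of the 22 genes 17 had a peak above the list's median and 7 above its 75th percentile. The median percentile of the member peaks was 58.5, 50.3 and 51.5 in replicates 1, 2 and 3, a mean of 53.4 ± 4.44 (SD, n = 3), against 54.3 ± 0.439 for all genes with a peak. Support in the replicates was near the background as well. For 12 of the 22 members (54.5%) the peak was overlapped in all 3 thresholded lists, for 5 in 2, for 3 in 1 and for 2 in none, and over all genes with a peak 58.5% were overlapped in all 3. The 12 were MED7, MED25, MED27, MED28, TfIIFalpha, Taf6, Taf7, Taf9, Taf13, Polr2D, Polr2H and Polr2J. Most deposited peaks had 1 fixed width of 484 bp (71% of the list and 15 of the 22 members), and the 7 narrower member peaks were those with the 7 highest signals.

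The summits lay just upstream of the members' start sites. On the members' own strand the median position was −112 bp, with a range from −242 bp at Polr2H to 116 bp at Taf7, and 19 of 22 summits were upstream (86.4%). Over all genes with a peak the median was −76 bp and 83.1% were upstream. The 3 downstream summits were at Taf3, Taf7 and Taf8. Positions are from the nearest annotated start of the gene, and at Taf4 and MED26, counted as upstream, that was an internal start, with the first start lying on the other side of the summit. The median for the peaks of each replicate's own thresholded list was −81, −108 and −76 bp for replicates 1, 2 and 3.

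Most of these peaks could not be given to the member gene alone. For 17 of the 22 members (77.3%) the summit was also within 500 bp of a start site of another coding gene, compared with 61.8% of all genes with a peak, and in each of the 17 cases a gene on the opposite strand was among them. The other gene's start was the nearer in 12 cases and the member's in 5. The MED7 summit was 95 bp from the start of MED7 and 183 bp from that of Cap-H2, a condensin II subunit gene. The MED28 summit was midway, 43 bp from MED28 and 45 bp from CG4553, and the MED27 summit likewise, 138 bp from MED27 and 140 bp from elm. By contrast, the TfIIFalpha summit was 108 bp from its start but 31 bp from that of CG1024, and the Polr2H summit 242 bp from Polr2H but 17 bp from CG11247. The Taf6 peak was nearer to ash1, a trithorax-group methyltransferase gene, at 100 bp than to Taf6 at 233 bp. Polr2D starts at the same base as Ada2a, with which it shares its promoter in flies, and Tgs1 and moi start on the other side of the summit. The other neighbours were EMC1 at Taf7, CG15141 at Polr2J, Hs6st at MED25, GatC and PolG2 at Polr2C, und at Taf11, nesd at Taf13, Nup75 and CG42518 at MED9, and CG11170 at MED16. Taf3, Taf4, Taf8, Taf9 and MED26 had a peak with no other coding start within 500 bp. When each peak was given only to the coding gene with the nearest start, 14 members (22.6%) had one, against 16.3% of all genes. For 10 of them this was the peak described above, and for MED16, Polr2H, Taf7 and TfIIFalpha it was another, weaker one.

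**Figure D3:**
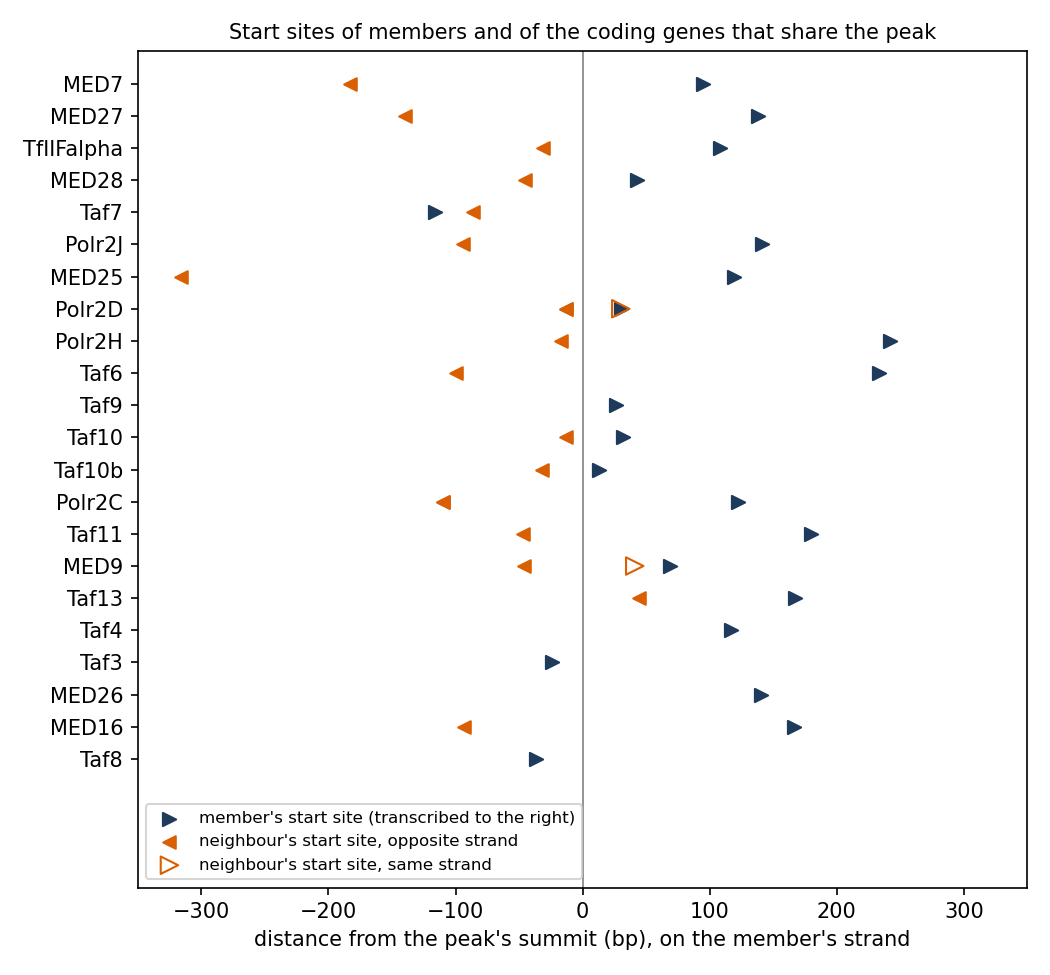
Each row is 1 member with a peak, drawn on its own strand around the summit (x axis, distance in bp, summit at 0); filled right-pointing triangles mark the member's start site, left-pointing triangles that of a neighbour on the opposite strand, and open right-pointing triangles that of a neighbour on the same strand. In 17 rows a neighbour's start falls within 500 bp, and in 12 of them it is nearer to 0 than the member's.

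Many members are arranged head to head with a neighbour, and the share with a peak was also read within that class, a split chosen after the values were seen. A coding neighbour on the other strand, starting within 500 bp and transcribed away from the member, was present for 38 of 62 members (61.3%) and for 27.4% of all coding genes. The share was also high among mitochondrial ribosomal protein genes (72.6%) and proteasome genes (50%), so the arrangement is not particular to the members. Among the 38 head-to-head members 17 had a conservative peak (44.7%), and among all head-to-head genes 45.2% did. Head-to-head members thus had a peak about as often as any head-to-head gene, and this share is no result about the members. Of the 24 members without such a neighbour 5 had a peak (20.8%), against 12.4% of all such genes, and these were Taf3, Taf4, Taf8, Taf9 and MED26. The TFII genes were head to head in 4 of 9 cases and the Mediator head genes in 8 of 9, although each group had a single peak. MED6 starts 19 bp from Naa80, MED18 74 bp from Gcna and Taf12 53 bp from Ho, and none of these spacers held a conservative summit.

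None of the motifs searched was found at most of the member summits. GGTGTGA, a core sequence known for T-box proteins, the family of Doc3, was sought on either strand in the 50 bp to each side of a summit, as were the other motifs, and was at 0 of 22 members, beside 1.15% of all 2793 conservative peaks. TATCGATA was at 2 of 22 (9.09%), MED28 and Polr2D, against 21.7% of all genes with a peak. Its core TATCGA, which TATCGATA contains, was at 10 of 22 (45.5%), near the 48.3% of all genes with a peak: MED9, MED27, MED28, Polr2D, Taf3, Taf8, Taf9, Taf10, Taf10b and Taf11. Within 250 bp of the summit TATCGATA was found at 8 of 22 members (36.4%, against 40.5%). Its nearest centre was 4 bp away at MED28, 16 bp at Polr2D, 55 bp at Taf3 and Taf7 and 59 bp at MED9. At MED7 it was 90 bp away, at MED26 104 bp and at MED25 111 bp. The core promoter element known as Motif 1, searched as GGTCACACT, was at 2 of 22 members (9.09%), Polr2D and Polr2H, and at 2.43% of all peaks. Here and for TATAAA and CAGCTG the background is all 2793 peaks, wherever they lie, and not the genes with a peak. TATAAA was at MED26 and Taf13, and at 13.9% of all peaks. The E-box CAGCTG was at no member summit, against 7.63% of all peaks. In the 250 bp upstream of the start site, TATCGATA was present at 10 of 62 members (16.1%) and 8% of all 13945 promoters. These were 6 of the 22 members with a peak, and 4 of the 40 without, namely MED8, MED17, MED18 and Polr2L. Over all genes the shares were 28.1% with a peak and 2.54% without.

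The ranked lists also hold regions far below the authors' threshold, and with them every member can be placed among all genes. For this, each gene was given the signal of its strongest ranked region within 500 bp of a start site, and genes were ranked within a replicate. Genes without a region are tied at the bottom and receive the middle rank of the tie, 23.3, 16.6 and 9.7 in replicates 1, 2 and 3. A region was present for 48, 56 and 48 of the 62 members, and for 53.3%, 66.8% and 80.5% of all genes. The members' share was thus the higher in replicates 1 and 2 and the lower in replicate 3. The median over the members of the mean percentile was 63.4, against 44.6 over all genes, and 82.8 over the 15 TAF genes. The 40 members without a conservative peak had a median of 48.5, against 37.5 over all such genes. The highest of them without any thresholded peak was TfIIA-S, for the small TFIIA subunit, with ranked signals of 28.7, 67 and 31.6 and a percentile of 79.9 ± 5.2 (SD, n = 3). Polr2F, a subunit of all nuclear RNA polymerases, had 25.4, 34.1 and 23.6 (70.3 ± 9.8), and TfIIA-L, encoding the other TFIIA subunits, 21.4, 31 and 25.1 (69.2 ± 7.4). MED6 had signals of 10.7, 29.7 and 44.7 (68.7 ± 11.5), MED30 11.3, 42.5 and 22.7 (65.2 ± 8.4), and MED17 15.4, 22.7 and 25.7 (63.5 ± 8.6). All 6 stood above the median gene in each replicate. At the other end MED21, MED31, Polr2K and TfIIA-S-2 had no region in any replicate, while 19 of the 40 had a region in all 3.

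**Figure D4:**
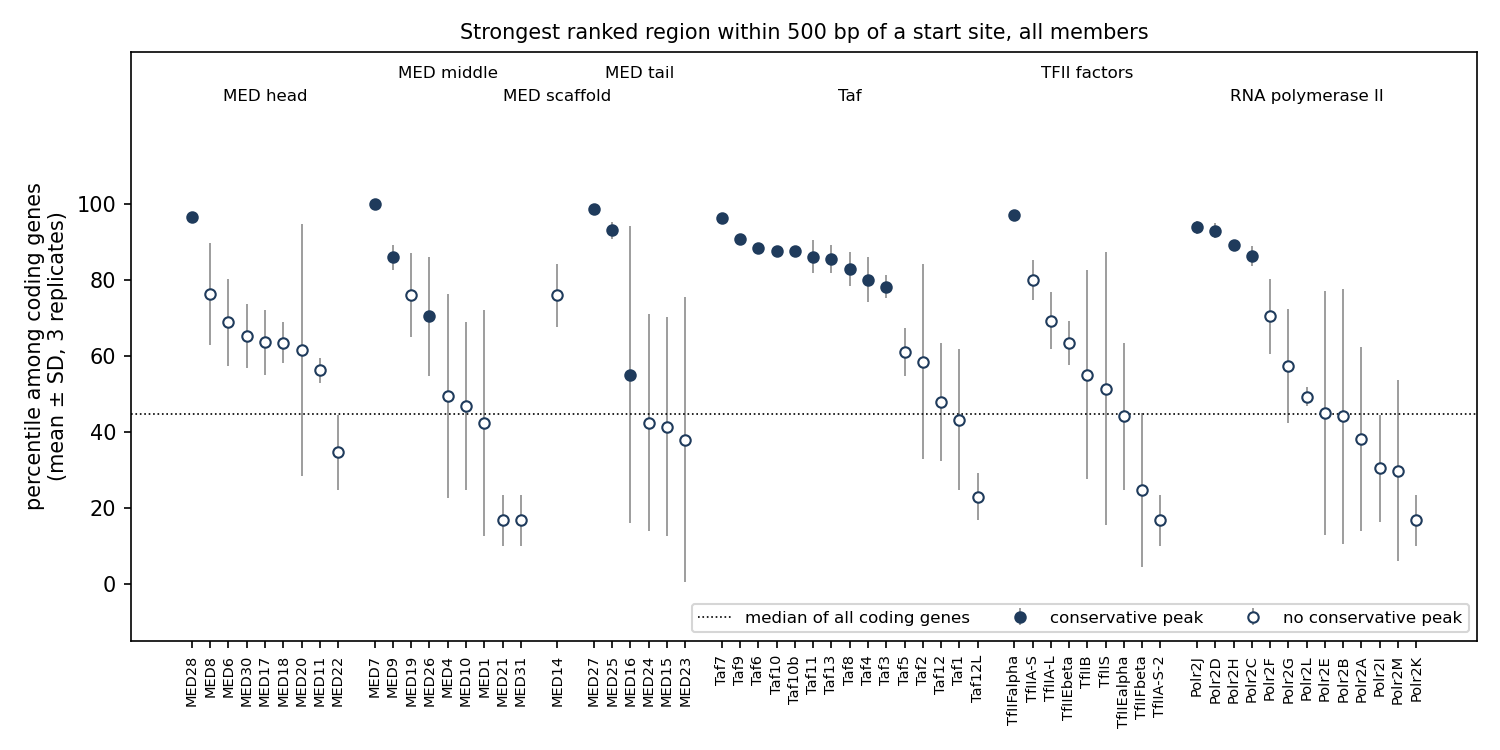
Points give the mean percentile among all protein-coding genes of each member's strongest ranked region within 500 bp of a start site (y axis), with lines for ± SD over 3 replicates, by group and in falling order; filled points are members with a conservative peak. All filled points but MED16 and MED26 lie at 78.1 or above, the open points spread from 16.6 to 79.9, and the longest line is that of MED16, which had no region in replicate 3. The dotted line is the median of all coding genes, 44.6.

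The remaining genes of the pathway, which carry other symbols, were bound at least as often as the members. Of 64 such genes 28 had a conservative peak (43.8%, Wilson interval 32.3 to 55.9%). TFIIH, the helicase and kinase factor that opens the promoter, had 6 of 10: mrn with a conservative signal of 502, Tfb5 with 325, Tfb4 with 308, Tfb1 with 293, Cdk7 with 290 and Xpd with 260.2. All 6 were overlapped in the 3 thresholded lists. The Mediator kinase module had 2 of 4, kto (305) and skd (214), and the tail gene ix (34.4) had 1. Of the TBP family Tbp (163) had a peak, while Trf and Trf2 did not, and of 4 other TAF-related genes mia (134) did. SAGA had 6 of 13 (Spt3 with 608, and Saf6, Sgf29, wda, Spt7 and not), pausing and elongation factors 4 of 10 (CycT, spt4, Cdk9 and Nelf-A), NC2 0 of 2, and RNA polymerases I and III 7 of 17. Among the core genes of TFIID, Tbp thus had a peak and Taf1, which encodes the largest subunit, did not.

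Gene sets of other complexes, also taken by symbol without regard to expression, had shares like that of the members. Proteasome subunit genes had a peak in 20 of 48 cases (41.7%) and mitochondrial ribosomal protein genes in 27 of 73 (37%). The members' share was 35.5% and that of all genes 21.4%. Wilson intervals of the compared sets, 28.8 to 55.7% and 26.8 to 48.5%, cover counting error only, and the sets were not tested against the members. Median conservative signal was 218 and 249 in these sets, against 210.5 for the members. The members' count was similar in the other series-level lists. It was 24 in the list of 3513 peaks (25% of all genes had one), 20 in that of 2456 (19.6%) and 19 in that of 2301 (18.3%). MED16 had no peak in any of these 3 lists, MED26 and Taf11 none in the lists of 2456 and 2301, and Taf3 none in that of 2301. MED14 and MED23 had one in the list of 3513, MED19 in those of 3513 and 2301, and MED20 in that of 2456.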

How the data were processed

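The deposited files were lists of ChIP-seq regions on dm6, per the file headers and labels. Each holds the authors' signal per region, used only within a list. It also holds a deposited score, a scaled irreproducible discovery rate (IDR) that was at least 830 in every thresholded list, and the deposited offset of the summit from the region's start. Per the file headers, replicate lists derive from 1 replicate's alignments and series-level lists from those of all replicates. The aligner and the peak caller were not given in the sources used here, nor how the series-level lists were pooled. Ranked series-level lists were not used.

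Start sites came from Ensembl release 115 (annotation 6.54, genome release 6), on the main chromosomes X, 2L, 2R, 3L, 3R and 4. Work was done in Python 3.11.15 with numpy 2.4.6, pandas 2.3.3, scipy 1.17.1 and matplotlib 3.10.9. A gene's peak was the one of highest conservative signal with its summit within 500 bp. Regions overlapped when they shared at least 1 bp, and a peak's signal in a replicate was the highest of the overlapping ranked regions. The distance and overlap rules were tested on simulated data. With 1 group and no control sample, counts were set beside the same counts over all genes, with no test. P-values are therefore not given, and the spread is that between the 3 biological replicates. The members and lists were chosen with earlier results of these data known. Every member is named. Values in each replicate are given for the 12 members with the highest conservative signal, where Taf10 and Taf10b tie at the end, for members with a thresholded peak in a replicate but no conservative one, and for the 6 without either whose ranked regions stood highest. Of the other pathway genes those with a peak are named, except those of RNA polymerases I and III, which are not reported here by gene; rye and Nelf-B were not found by symbol. Alternatives were other distances, lists, start sites, overlaps, motif windows and spellings, and leaving out each replicate.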

Additional observations from a re-analysis of the deposited data

How the results depend on the processing

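With no read depths, signal could be compared only within a list, and with 3 replicates of 1 group no outlier or group difference could be sought. The count of members with a peak (22) stayed within 1.5 times under 9 of 12 alternatives, the count sharing a promoter (17) under 10 of 11, and the count supported in all replicates (12) and the median percentile (53.4) changed little under any of theirs. With a replicate left out, a conservative peak had to be overlapped in both other thresholded lists, a demand the main count does not make. Under it the first count was 12 without replicate 1, 15 without replicate 2 and 14 without replicate 3. The second was between 11 and 14. With all 3 lists demanded the first was 12, and it cannot be higher than with 2 lists. The cause of the fall was not tested. With a replicate left out the third count equals the first, between 12 and 15, and it cannot fall below the 12 of all 3 lists. The median percentile was then between 50.9 and 55. Giving each peak to the nearest coding gene gave 14 members. TATCGATA stood at 2 members within 50 bp of the summit, at 6 within 100 bp and at 8 within 250 bp, and the core TATCGA at 10. Among members with a peak these were 9.09%, 27.3%, 36.4% and 45.5%. Over all genes with a peak the same shares were 21.7%, 32.5%, 40.5% and 48.3%. The median summit position of −112 bp moved to −95 bp with the list of 2301 peaks and with the 5'-most start site only, and lay between −120.5 and −95 bp when a replicate was left out. The cause of the other shifts was not tested, apart from the wider windows, which hold more sequence. No paired analysis was possible because the samples form 1 group.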
